A study of Mus musculus with 6 samples.

Results

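Surface and secreted proteins that mark the adipose progenitors of the fat pad were followed at the mRNA level in mice whose adipocytes lack CNOT3. The genes were listed by name: Pi16, Dpp4, Cd34, Ly6a, Fap, Gsn and Thy1. All probe sets that the platform annotation assigns to 1 of these symbols and to no other gene were taken, which gave 15 of the 45037 probe sets on the array and covered 6 of the 7 genes. Ly6a, which encodes the surface antigen SCA-1, had no such probe set in the annotation used and was not analysed here. The 3 CNOT3KO mice lacked Cnot3 in adipose tissue through Cre recombinase under the Adiponectin promoter, an adipocyte promoter, so that the other cells of the fat pad keep the gene, and the 3 WT mice were the wild-type controls, for which no floxed allele or Cre is named in the labels. All 6 animals were C57BL/6 mice aged 8 weeks, bred under specific-pathogen-free conditions, and RNA was taken from whole epididymal white adipose tissue, with 1 Affymetrix array per mouse. The values are linear MAS5 signals, and a fall in whole tissue can mean fewer cells of a type or less RNA per cell, which cannot be told apart here.

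White fat holds a pool of stromal cells from which new adipocytes form. In mouse subcutaneous fat, cells that carry DPP4 and PI16 lie in the fibrous septa and the outer layer of the depot and are regarded as an early, multipotent progenitor state, upstream of committed preadipocytes that carry ICAM1. CD34, SCA-1 and THY1 are used with PDGFRA to sort this whole stromal fraction, FAP is a cell surface peptidase of fibroblasts in remodelling tissue, and gelsolin is an abundant actin-severing protein with a secreted plasma form. None of these proteins is exclusive to progenitors: CD34 and SCA-1 are also found on endothelium, THY1 and DPP4 on T cells, and gelsolin in adipocytes and many other cells.

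The targeted gene, Cnot3, read 201 ± 25.6 in CNOT3KO and 301 ± 7.02 in WT tissue (SD, n = 3 each) by its brighter probe set (log2 -0.54, limma adjusted p = 0.0131). Its second probe set, of similar brightness, read 227 ± 24.1 in CNOT3KO and 264 ± 47.7 in WT, overlapped and was not called (log2 -0.19, adjusted p = 0.41 over all probe sets). Where the probe sets lie relative to the deleted part was not analysed here. The tissue label was borne out by the adipocyte genes Adipoq and Lep, whose lowest signals were 24292 and 3783 in CNOT3KO and 21950 and 9812 in WT. Median signals were 82.1 to 88.0 on the CNOT3KO arrays and 91.9 to 92.9 on the WT arrays. A difference was called where the limma adjusted p was under 0.05, over 12769 tested genes with 1 probe set each. Of these, 40.1% were called, 23.2% higher and 16.9% lower in CNOT3KO, or 2959 and 2156 genes. Subtracting from each array its median over the tested genes made the split 2318 higher and 2800 lower, and moved the median difference of all genes to -0.07, against 0.02. Against this background, 2 of the 6 progenitor genes were called, 1 higher (Fap) and 1 lower (Pi16), with a median log2 difference of -0.17 over the 6. Knockout and WT signals did not overlap in 4 of the 6 genes (Pi16, Dpp4, Fap and Thy1), nor in 51.7% of all tested genes. Tested singly, 5 of 13 probe sets of these genes were called, against 36% of all 27022 probe sets tested, and 2 of the 15 were too dim to be tested. The shares of calls among the progenitor genes were thus close to those of the whole array.

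**Figure D1:**
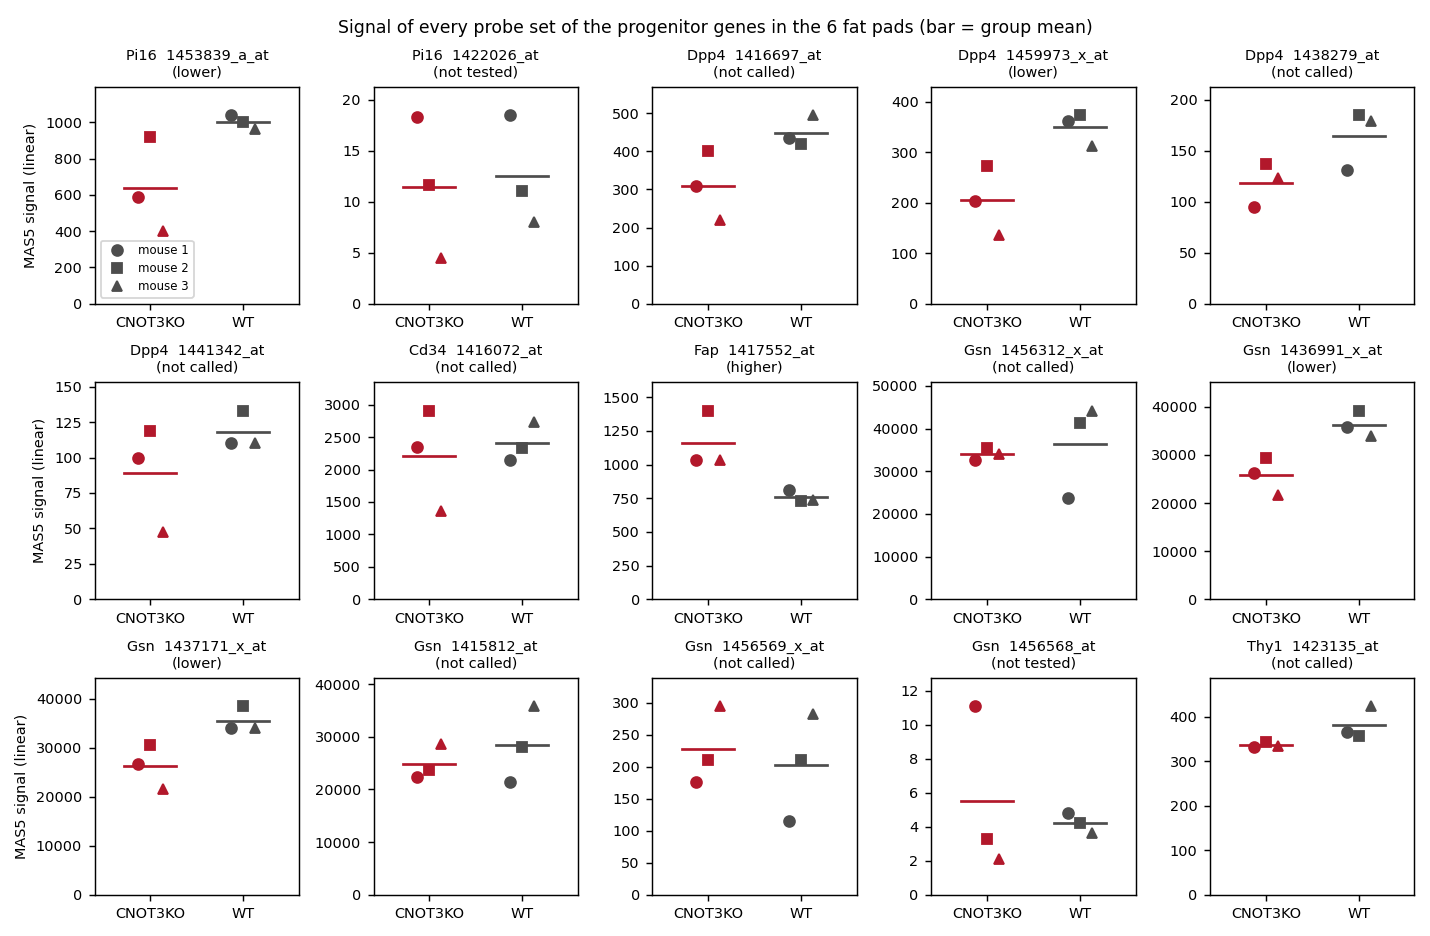
Linear MAS5 signal (vertical axis, from 0 in each panel) of all 15 probe sets of the progenitor genes in CNOT3KO mice (left, red) and WT mice (right, grey). Marker shapes give the mouse number, and bars give group means. Fap lies higher in all 3 CNOT3KO mice, Pi16 and the brightest Dpp4 probe set lie lower in all 3, and Cd34 overlaps.

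Fap, the fibroblast activation protein, was the only one of the 6 genes to rise. It encodes a serine peptidase of the cell surface that cleaves after proline and acts on denatured collagen. The Fap signal was 1033, 1399 and 1037 in the CNOT3KO mice, against 814, 726 and 738 in the WT mice. The groups did not overlap, and the lowest knockout value stood above the highest WT value. The means were 1156 ± 211 in CNOT3KO and 759 ± 47.5 in WT (SD, n = 3 each), so that the knockout mean was 152% of WT. The log2 difference was 0.58 (SE 0.14, 95% confidence interval 0.27 to 0.89, limma adjusted p = 0.00859). Fap was called in each of the 21 other settings tried, with log2 differences between 0.44 and 0.65. Under the strictest threshold tried, adjusted p under 0.01, its call held for the gene and was lost where each probe set was tested singly (adjusted p = 0.0109).

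Pi16, peptidase inhibitor 16, is a member of the CAP family of cysteine-rich secretory proteins and one of the most widely used markers of the early progenitor state. Its brighter probe set read 591, 919 and 401 in CNOT3KO, against 1040, 1002 and 967 in WT. The WT mice were close together, while the knockout mice spread widely, mouse 2 just below the WT range and mouse 3 far below it. The means were 637 ± 262 in CNOT3KO and 1003 ± 36.8 in WT (SD, n = 3 each), or 63.5% of WT, and the log2 difference was -0.71 (SE 0.24, 95% confidence interval -1.25 to -0.18, limma adjusted p = 0.0381). The call was lost in most fits with 1 array left out. Without CNOT3KO mouse 1 (log2 -0.70) or WT mouse 1 (-0.69), 2 (-0.71) or 3 (-0.74) the estimate hardly moved. In these fits the SE rose to between 0.28 and 0.29, and the call was lost. The estimate itself depended on CNOT3KO mice 2 and 3. Without mouse 3 it was -0.43 and not called, and without mouse 2 it was -1.01 and called (adjusted p = 0.0021). The second Pi16 probe set read 4.45 to 18.3 in CNOT3KO and 8.06 to 18.5 in WT, at percentile 13.8 of mean signal, and carries no information on a difference. Averaging in this uninformative probe set gave -0.38 and no call, which is not a separate check on Pi16. The call was also lost without a filter (adjusted p = 0.0686) or without trend (0.0645).

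Dpp4, dipeptidyl peptidase 4 or CD26, cuts dipeptides from the amino end of chemokines and incretins and gives the early progenitor state its usual name. By the brightest of its 4 probe sets Dpp4 read 308, 401 and 221 in CNOT3KO, against 434, 419 and 495 in WT. All 3 knockout values lay below the lowest WT value, with mouse 3 again the lowest and mouse 2 the highest. The means were 310 ± 90.1 in CNOT3KO and 449 ± 40.3 in WT (SD, n = 3 each), or 69.0% of WT. The log2 difference of -0.54 (SE 0.19, 95% confidence interval -0.97 to -0.10) just missed the threshold, with a limma adjusted p of 0.0504. Small changes of setting moved it across: Dpp4 was called in 10 of 21 other settings. Among them were quantile normalization (adjusted p = 0.0366), median centring of the arrays (0.0200), array weights (0.0173) and the fit without CNOT3KO mouse 2 (log2 -0.73, 0.0117). Another was the threshold of 0.1, which 0.0504 passes by definition. The rest passed narrowly, at adjusted p of 0.0469 to 0.0499. Dpp4 was furthest from a call without CNOT3KO mouse 3 (log2 -0.33, adjusted p = 0.136).

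The other Dpp4 probe sets pointed the same way with different strength. The second brightest read 204, 272 and 137 in CNOT3KO, against 362, 373 and 312 in WT, and was called lower (log2 -0.75, SE 0.21, limma adjusted p = 0.0206 over all probe sets). Its suffix marks probes that may bind related transcripts. The remaining Dpp4 probe sets had log2 differences of -0.41 and -0.39, overlapping groups and no call. All 4 probe sets target 1 gene in the same 6 RNAs and are not independent measurements of the difference.

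Pi16 and Dpp4, the pair that define the early progenitor state, both read lower in the knockout, and the stretch of genome upstream of each is shown for that reason. The sequences are RefSeq promoter windows of the build GRCm38.p6, cut to the 164 bases from position -250 to position -87 of the listed start site, so that they end before the annotated gene. The windows are chr17:29318632-29318795 (plus strand) for Pi16 and chr2:62412318-62412481 (minus strand) for Dpp4, written 5′ to 3′ with matches to the motifs searched in capitals.
Pi16: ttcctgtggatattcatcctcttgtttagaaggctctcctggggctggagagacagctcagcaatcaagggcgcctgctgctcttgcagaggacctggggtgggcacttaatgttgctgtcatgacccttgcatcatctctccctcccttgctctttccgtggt
Dpp4: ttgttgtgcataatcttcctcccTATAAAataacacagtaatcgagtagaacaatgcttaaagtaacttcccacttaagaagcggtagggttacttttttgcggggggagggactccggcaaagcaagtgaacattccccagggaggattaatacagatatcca

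The 4 motifs searched, on both strands, were general promoter elements. The TATA motif TATAAA was found in 7.83% of 32851 windows of the same placement, and the Dpp4 window held 1, starting at position -227, while the Pi16 window held none. The CCAAT box, by its letters CCAAT, was found in 22% of windows, the GC box GGGCGG in 18.6% and the E-box CACGTG, a palindrome, in 3.26%, and neither window shown held any of these 3. No match in either window overlapped another. In base composition, 54.3% of the Pi16 window and 42.7% of the Dpp4 window was G or C, against a median of 51.2% over all windows. The promoter table matched 4 of the 7 genes: Pi16, Dpp4, Cd34 and Gsn.

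**Figure D2:**
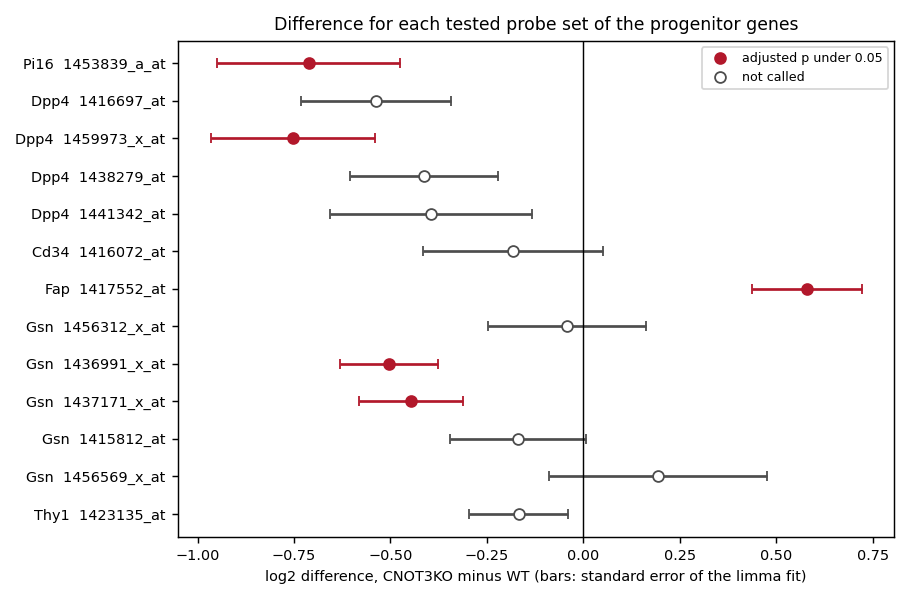
Log2 difference, CNOT3KO minus WT (horizontal axis), for the 13 tested probe sets of the progenitor genes, 1 row each. Points are limma estimates and bars their standard errors; filled red points passed an adjusted p of 0.05 over all probe sets. Fap is to the right of 0, the 4 Dpp4 probe sets and Pi16 to the left, and the 5 Gsn probe sets spread from -0.50 to 0.19.

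Fap and Dpp4 are close relatives. Both are prolyl peptidases anchored in the membrane, able to pair with each other, and their genes lie next to each other on mouse chromosome 2 with 1 protein-coding gene between them, Gcg, which encodes the precursor of glucagon and of the DPP4 substrate GLP-1. In the knockout fat pads their signals pointed in opposite directions. The log2 difference of Fap exceeded that of Dpp4 by 1.12, and the Fap to Dpp4 log2 ratio was 1.68 to 2.12 in CNOT3KO arrays, against 0.56 to 0.87 in WT arrays. The ratio of Fap to Pi16 separated the groups as well, by 1.29. So did the ratios of Pdgfra, which encodes the receptor used to sort all stromal progenitors, to Dpp4 (1.37) and to Pi16 (1.54). Each of these 4 contrasts, chosen after the values were seen, gave an exact two-sided permutation p of 0.1 (adjusted over the 4, also 0.1). That is the smallest that 3 against 3 arrays allow, so none can pass a threshold of 0.05 in this design. Fap and Pdgfra each read higher, and Dpp4 and Pi16 each lower, in every CNOT3KO array than in any WT array. All 4 ratios therefore had to separate the groups, and their separation and permutation p add nothing to the single genes. A ratio within an array compares changes only, since different probe sets have no common scale of level.

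Cd34, the sialomucin of progenitor and endothelial surfaces, read 2350, 2907 and 1368 in CNOT3KO, against 2145, 2337 and 2737 in WT. The groups overlapped: mouse 2 of the knockout had the highest Cd34 signal of all 6 animals and mouse 3 the lowest. The log2 difference was -0.18 with a 95% confidence interval of -0.71 to 0.34 (limma adjusted p = 0.573), and without CNOT3KO mouse 3 it was 0.13. The interval allows a fall or a rise of moderate size, so the data do not show that Cd34 was unaffected.

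Thy1, the GPI-anchored protein CD90 of fibroblasts, T cells and neurons, read 333, 344 and 335 in CNOT3KO, against 366, 358 and 424 in WT. All knockout values lay below all WT values, but by little, and WT mouse 3 stood above the other WT mice. The log2 difference was -0.17 (SE 0.13, 95% confidence interval -0.45 to 0.11, limma adjusted p = 0.318). Thy1 was not called in any of the 21 other settings, in which its log2 difference lay between -0.26 and -0.10.

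Gsn, gelsolin, severs and caps actin filaments and is among the brightest transcripts of the fat pad, with 4 of its 6 probe sets at percentile 100, after rounding, of mean signal. Its probe sets disagreed. The one with the highest mean read 32593, 35416 and 34160 in CNOT3KO, against 23633, 41221 and 44207 in WT. WT mouse 1 lay below all knockout mice, and WT mice 2 and 3 above them. Its log2 difference was -0.04 (95% confidence interval -0.51 to 0.42, limma adjusted p = 0.89), but without WT mouse 1 it was -0.33 and called (adjusted p = 0.0357).

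The second brightest Gsn probe set read 26295, 29284 and 21615 in CNOT3KO, against 35847, 39185 and 33885 in WT. Its groups did not overlap, and the difference was called (log2 -0.50, SE 0.13, limma adjusted p = 0.0124). The third gave the same order of knockout mice and a log2 difference of -0.45 (adjusted p = 0.0276). The fourth, the only bright one without the suffix for possible cross-hybridisation, gave -0.17 and overlapping groups, and the fifth, far dimmer, gave 0.19. For Gsn the call therefore depends on which probe set is read, and averaging them all gave -0.15 and no call for Gsn. The sixth read 2.10 to 11.1 in CNOT3KO and 3.61 to 4.80 in WT and was not tested.

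The knockout mice differed among themselves. Among the CNOT3KO arrays, mouse 2 had the highest signal in 11 of the 13 tested probe sets of the progenitor genes, and mouse 3 the lowest in 7. By gene, mouse 2 was highest in all 6 and mouse 3 lowest in 3. Of all 12769 tested genes, mouse 2 was highest in 4699 and mouse 3 lowest in 5080. Both held together in 7 of 13 probe sets, in 3 of the 6 genes and in 24.9% of all tested genes. The 6 genes come from the same tissue samples, so these counts are not independent of one another. In the genes that read lower, Pi16 and Dpp4, mouse 3 lay furthest from WT. In Fap, mouse 2 did.

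**Figure D3:**
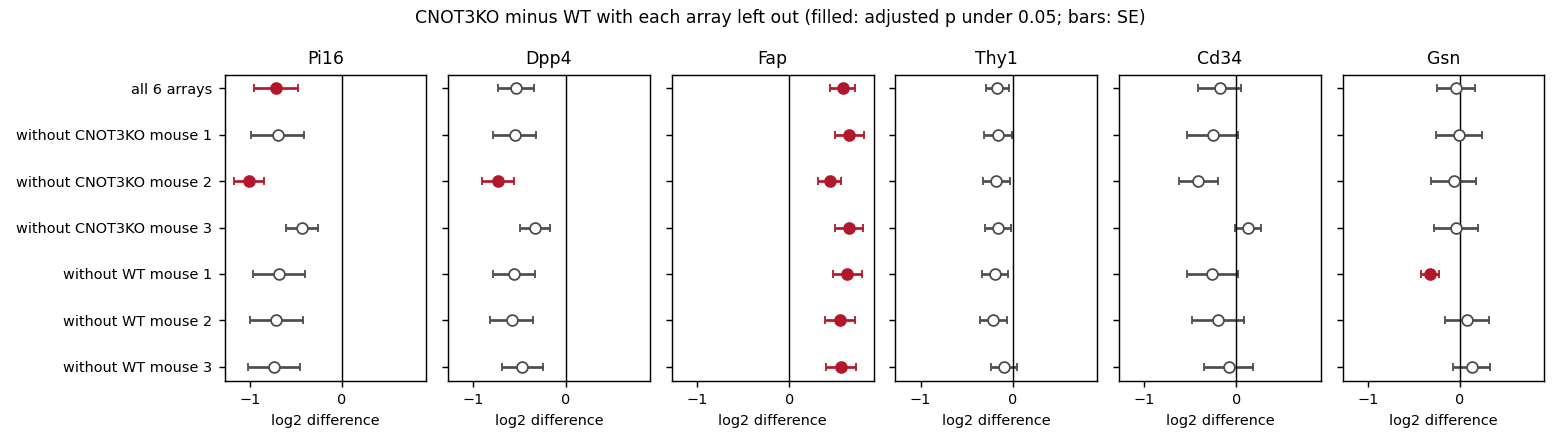
Log2 difference, CNOT3KO minus WT (horizontal axis), of each progenitor gene with all 6 arrays and with each array left out in turn (rows). Bars are standard errors and filled red points passed a limma adjusted p of 0.05; Fap stays called in every row, Pi16 only with all 6 arrays or without CNOT3KO mouse 2, Dpp4 only without CNOT3KO mouse 2, and Gsn only without WT mouse 1.

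Genes that single-cell studies of mouse fat assign to the same early Dpp4 and Pi16 state were mostly not called. Of 18 tested members, 1 rose, 1 fell and 16 were not called, while 23.2% of all tested genes were called higher and 16.9% lower. The median log2 difference of the 18 was -0.12, beside 0.02 for all tested genes. Ackr3, a scavenging receptor for CXCL12, fell by 0.91 on the log2 scale (SE 0.21, limma adjusted p = 0.00709), with knockout values of 1600, 1768 and 954 against 3056, 2484 and 2428 in WT. Emilin2, an elastic-fibre glycoprotein, was called higher (0.59) with overlapping groups. Its call was lost without CNOT3KO mouse 1 (0.49) or 2 (0.50) and without WT mouse 1 (0.41) or 2 (0.65), and also without a filter, without trend, with median centring (0.49) and with the mouse number as a block (adjusted p = 0.0589). Wnt2, too dim to be tested, read 32.1 to 54.4 in CNOT3KO and 17.9 to 37.2 in WT.

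Committed preadipocyte genes were mostly uncalled too, with 2 of 15 lower, none higher and a median of -0.12. Over all tested genes 16.9% were called lower and 23.2% higher. The list holds very bright genes such as Fabp4 (31422 to 36773 in CNOT3KO, 33985 to 39636 in WT) and Lpl (24622 to 30876 and 24703 to 33779). Whole tissue does not separate preadipocytes from adipocytes or other cells, so the list does not report on preadipocytes alone. The 2 preadipocyte genes called were regulators of the adipocyte lineage: Ebf2 fell by 1.10 and Zfp423 by 0.69 on the log2 scale. Icam1, the surface marker of this state, read 486, 451 and 330 in CNOT3KO, against 257, 331 and 384 in WT, and was not called (log2 0.36). Of 9 genes of the F3-positive stromal population, which restrains adipogenesis in mouse subcutaneous fat, 3 fell and 2 rose. Meox2, a homeobox gene, fell by 1.51, Fmo2, a monooxygenase, by 0.60 and F3, tissue factor, by 0.38, while the matrix genes Bgn (0.55) and Mgp (0.53) rose. The F3 call was lost without CNOT3KO mouse 1 (-0.32) or without WT mouse 1 (-0.37) or 3 (-0.33) and with arrays centred on ribosomal protein genes (-0.35), and that of Bgn without WT mouse 2 (0.50).

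Of 20 general stromal and fibroblast genes tested, 11 rose, none fell and 9 were not called, with a median of 0.38, beside the 23.2% called higher over all genes. Cd44, the hyaluronan receptor, rose by 1.97, S100a4 by 1.74 and the matrix proteoglycan gene Lum by 1.55 on the log2 scale. Pdgfra read 2744, 3596 and 1970 in CNOT3KO, against 1149, 1559 and 1896 in WT, and was called higher (log2 0.83, SE 0.23, limma adjusted p = 0.0166), a call lost without CNOT3KO mouse 1 (0.815) or WT mouse 1 (0.64). Cd44, S100a4 and Cd9 are also expressed by macrophages. Among activated fibroblast genes, with which FAP is usually grouped, 6 of 8 tested rose and none fell (median 0.86). Timp1, an inhibitor of metalloproteinases, rose by 3.49, Adam12, a membrane metalloproteinase, by 1.49 and Cthrc1, a secreted protein of collagen-producing fibroblasts, by 1.27 (0.84 with a larger log2 offset, the median signal).

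**Figure D4:**
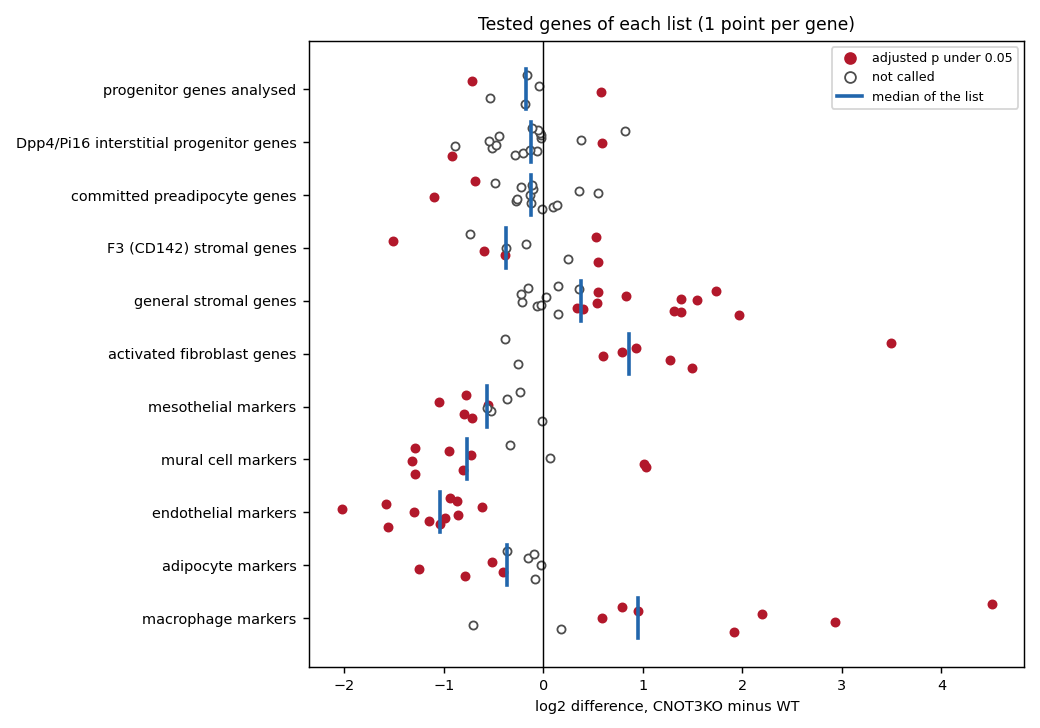
Log2 difference, CNOT3KO minus WT (horizontal axis), of every tested gene in 11 lists (rows), 1 point per gene. Filled red points passed a limma adjusted p of 0.05, and blue bars are list medians: -0.12 for the interstitial progenitor genes, 0.38 for the general stromal genes and 0.86 for the activated fibroblast genes.

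Relatives of the progenitor genes were examined family by family, beside the 23.2% called higher and 16.9% called lower over all tested genes. Of 6 other prolyl and dipeptidyl peptidases tested, 2 rose and 1 fell. Dpp7, a dipeptidyl peptidase of intracellular vesicles, rose by 1.07 and Apeh, which releases acylated amino acids, by 0.66, while Dpp8, a cytosolic relative of DPP4, fell by 0.93 on the log2 scale. The direction of Dpp7 depended on the probe set. With probe sets of suffix s, x or a avoided, it read -0.42 and was not called. With all probe sets averaged Dpp7 gave 0.55 and Dpp8 -0.41. Among 7 tested genes for peptides that DPP4 or FAP can cut, 3 rose and 1 fell. Npy rose by 1.37 (0.75 with the larger log2 offset), the interferon-induced chemokine Cxcl10 by 0.75 and the stromal chemokine Cxcl12 by 0.65, and Cxcl9 fell by 1.91. The Cxcl10 call was lost without CNOT3KO mouse 1 (0.63) or 3 (0.68) or WT mouse 2 (0.53), without a filter, and with median centring (0.65). Cxcl12 gave -0.09, not called, with all probe sets averaged.

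In the gelsolin family 2 of 4 tested genes rose, Capg, the macrophage capping protein, by 2.53 (1.39 with all probe sets averaged) and the villin-like gene Vill by 0.83. Of 7 actin and actin-binding genes Pfn1, profilin, rose by 0.70 and Wdr1 by 0.46, with none lower. Of 7 tested genes of the Ly6 family, Ly6h rose by 1.37 and Gpihbp1, which holds lipoprotein lipase on capillaries, fell by 1.64. In the CAP family, to which Pi16 belongs, 1 of 3 tested rose, Glipr1, by 2.97 (1.77 with all probe sets averaged), so that it moved opposite to Pi16. Podxl, the closest relative of Cd34 and a marker of vascular endothelium, fell by 0.91, and was the only tested gene of its list. Of 6 integrin and syndecan partners of THY1, 4 rose: the leukocyte integrin genes Itgb2 (2.38), Itgax (2.29) and Itgam (1.05), and Itgb3 (0.87). The Itgb3 call was lost without CNOT3KO mouse 1 (0.81) or 2 (0.64) or WT mouse 1 (0.795), and with all probe sets averaged (0.44).

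Markers of the other cell types that carry these proteins moved in the same tissue, and their part in the values above was not tested. In these lists, rose and fell mean called higher and called lower, beside 23.2% and 16.9% of all tested genes. Endothelial markers, relevant to Cd34, fell in 11 of 11 tested cases (median -1.04), with Kdr at -2.03, Robo4 at -1.58 and Cdh5 at -1.56, and the summed signal of the list was 4964 to 5906 in CNOT3KO and 12820 to 13560 in WT. Mural cell markers fell in 6 of 10 cases, with Kcnj8 at -1.32 and Rgs5 and Abcc9 both at -1.29. They rose in 2, Cspg4 (1.03) and Des (1.01). The list summed to 12730 to 15380 in CNOT3KO and 18020 to 25700 in WT. These sums included Rgs5 at 3528 to 3874 in CNOT3KO and 7160 to 11106 in WT. Mesothelial markers, relevant to Dpp4, fell in 5 of 10 cases (median -0.56): Msln by 1.04, Krt18 by 0.80, Upk3b by 0.78, Gpm6a by 0.71 and Lrrn4 by 0.56. Upk3b lost its call without WT mouse 2 (-0.68), and Gpm6a without CNOT3KO mouse 1 (-0.68) or WT mouse 2 (-0.62). The summed mesothelial signal was 3980 to 5710 in CNOT3KO and 6336 to 7902 in WT.

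Of the T cell markers, relevant to Thy1 and Dpp4, 5 of the 8 with a probe set could be tested. The defining gene Cd3e read 29.8 to 30.6 in CNOT3KO and 17.4 to 93.0 in WT and was not tested, and 1 of 5 tested markers rose, Il7r, by 2.74. The summed signal of the list, 1571 to 2218 in CNOT3KO and 670 to 876 in WT, included Il7r at 1094 to 1695 in CNOT3KO and 151 to 224 in WT. Of the innate lymphoid markers only Klrg1 could be tested and it was not called (-0.20), with sums of 94.9 to 140 in CNOT3KO and 125 to 145 in WT. Both tested B cell markers were lower, Ms4a1 by 1.49 and Cd79b by 1.09, at sums of 44.3 to 108 in CNOT3KO and 138 to 448 in WT. With the larger log2 offset they gave -0.95 and -0.59. The Ms4a1 call was lost without WT mouse 2 (-1.42) and with all probe sets averaged (-1.03). The Cd79b call was lost without CNOT3KO mouse 3 (-0.63) or WT mouse 2 (-0.96) or 3 (-0.98), with a log2 offset of 1 (-1.69), and without a filter or trend, with quantile normalization, with averaged probe sets and with the mouse number as a block (adjusted p = 0.0607).

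Macrophage markers were called higher in 7 of 9 cases and lower in none (median 0.96). Trem2 stood at 4.51 (1.88 with all probe sets averaged), Cd68 at 2.93 and Fcgr1 at 2.20 (1.44 averaged). Cd163, on the same list, went the other way without overlap but was not called (log2 -0.71, limma adjusted p = 0.0657). It read 1909, 1637 and 767 in CNOT3KO, against 2255, 2307 and 2068 in WT. The list summed to 38990 to 55110 in CNOT3KO and 21980 to 27480 in WT. Of 5 tested cell cycle genes 5 rose (median 1.96): Cdk1 (2.81), Mki67 (2.51), Birc5 (1.96), Top2a (1.76) and Aurka (1.45), which are active in dividing cells of any type. Top2a gave 0.67 with all probe sets averaged and 0.26, not called (limma adjusted p = 0.425), with probe sets of suffix s, x or a avoided. Aurka gave 0.69 averaged and 0.90 with the larger log2 offset. Adipocyte markers, relevant to Gsn, fell in 4 of 9 cases and rose in none (median -0.37). Lep fell by 1.25, Cidec by 0.79, Plin4 by 0.52 and Dgat2 by 0.40, the last losing its call without CNOT3KO mouse 1 (-0.31) or WT mouse 2 (-0.37), and the list summed to 112500 to 137400 in CNOT3KO and 135200 to 167800 in WT. The lowest single signal in these marker lists was 3.05, in the innate lymphoid list. The lowest value on every array was 1, so no signal could read 0.

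The tested genes whose profile over the 6 arrays was most like that of each called progenitor gene were found by the root mean square difference of centred log2 values. For Fap these were Mgp, the matrix Gla protein (0.0383), and Sox4, a transcription factor (0.0505). Both were higher in all 3 CNOT3KO mice and, like Fap, highest in mouse 2, which their selection by likeness favours. Sox4 gave only 0.23, not called, with all its probe sets averaged, against 0.63. For Pi16 they were Clvs1, a clathrin vesicle protein (0.0927), and Limch1, an actomyosin regulator (0.103) that is itself on the list of early progenitor genes. Limch1 read 501, 699 and 319 in CNOT3KO, against 726, 762 and 666 in WT, and was not called (log2 -0.55, limma adjusted p = 0.0856), but passed without CNOT3KO mouse 2 (-0.81), with median centring (-0.65), with array weights (-0.52) and with the mouse number as a block (adjusted p = 0.044). With all its probe sets averaged Limch1 gave -0.07. Clvs1 was called lower (-0.74), a call lost without CNOT3KO mouse 1 (-0.74) or 3 (-0.52) or any 1 of the WT mice (-0.80 to -0.66), without a filter, and with all probe sets averaged (-0.61).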

How the data were processed

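RNA from epididymal fat of 3 CNOT3KO and 3 WT mice (500 ng each) was labelled with biotin and hybridised to 1 Affymetrix array per mouse, per the labels' protocols. The authors deposited unlogged intensities, 1 for every probe set of an array, and the submitters' processing notes name MAS5 as the tool. Its version and scaling target are not stated there. Trimmed means of the arrays, leaving out the outer 2% at each end, differed by at most 0.071%. MAS5 subtracts mismatch signal, which makes low signals erratic once logged.

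The platform annotation gave 34945 probe sets 1 symbol, 932 several and 9160 none. Of the 18193 genes so named, each was read from its single-symbol probe set with the highest mean, and 5424 with a mean under 51.6, the 40th percentile, were set aside. The remaining 12769 were tested on log2(signal + 22.5), where 22.5 is the 25th percentile of the table, with limma 3.58.1 in R 4.3.3 (lmFit, eBayes with trend, two-sided, Benjamini-Hochberg). The offset of 22.5 compresses the log2 changes of dim genes. A second fit tested 27022 probe sets singly. The gene fit was tested on simulated data. Titles number the mice separately, and 4 residual degrees of freedom (median standard error 0.15) limit the precision.

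The progenitor genes and all lists were chosen with earlier results of these data known. Besides these genes and Cnot3, the text names up to 3 called genes per list with the largest change. All were named where 5 or fewer were called, and the brightest where none was. Defining markers and the 2 most similar profiles per called progenitor gene were named too. Wnt2, Icam1, Fabp4, Lpl, Cd163, Cspg4 and Des were added once their values had been seen. The 21 other settings began with a log2 offset of 1 or of the median signal (88.5), no filter or the 60th percentile, and quantile normalization. Arrays were also centred on all tested or on 41 ribosomal protein genes. Probe sets were averaged, dim ones included, or those whose names end in _s_at, _x_at or _a_at were avoided where possible. The rest were eBayes untrended or robust, weighted arrays, a block for the mouse number, thresholds of 0.01 and 0.1, and 6 fits that each omit 1 array. Sequences and plots used Python 3.11.15, pandas 2.3.3, numpy 2.4.6 and matplotlib 3.10.9. With 3 mice per group no outlier test was made.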

Additional observations from a re-analysis of the deposited data

How the results depend on the processing

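Without a filter, without trend, and at an adjusted p under 0.01 the progenitor genes called numbered 1 (Fap) in each case, against 2. Their probe sets called numbered 2 without a filter, 3 without trend and 0 at 0.01, against 5, where limma gave 6 with an unadjusted p under 0.05. At 0.01 the calls over all genes fell to 3144, against 5115. Leaving out 1 array gave 3820 to 4636 genes, 1 to 3 progenitor genes and 1 to 6 of their probe sets. With 1 array left out the log2 difference of Gsn ranged from -0.33 to 0.12 (0.07 without WT mouse 2, 0.12 without WT mouse 3), that of Cd34 from -0.41 to 0.13 (positive without CNOT3KO mouse 3) and that of Adipoq from -0.27 to 0.071 (positive without WT mouse 3). Some settings changed a sign. Quantile normalization gave 0.13 for Gsn and 0.038 for Adipoq, and the mean of all probe sets gave -0.087 for Cxcl12. The Gsn probe set read was the highest signal on the arrays of CNOT3KO mice 1 and 2 and WT mice 2 and 3. Quantile normalization gives the top signal of every array the same value, so differences of Gsn between those mice were removed. Avoiding probe sets of suffix s, x or a gave -0.42 for Dpp7, and array weights gave 0.033 for Klrg1. The cause of these changes was not tested. With the mouse number as a replicate block 5092 genes, 2 progenitor genes and 5 of their probe sets were called. Deviations of same-numbered mice from their group means correlated at 0.0742, 0.109 and 0.0433 across genes. In this comparison 6 of 6 arrays correlated best with their own number, which is a weak hint from the data and not from the design. Deviations within a group add up to 0, so these 6 matches are not independent of one another. With probe sets of suffix s, x or a avoided, Pi16 was read from its dim probe set, fell below the filter and gave no value.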
